A study of Drosophila melanogaster with 8 samples.

Results

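The vacuolar proton ATPase genes of Drosophila were followed in polyadenylated RNA from S2 cells and from the exosomes these cells release. They were chosen by name, as every gene whose symbol in the deposited table or in the current Release 6 annotation begins with Vha. This gave 34 of the 14012 genes of the table, with 59 of its 21081 transcripts. Of the 34, 2 bore the name in the current annotation only (Vha36-3 and VhaAC45RP) and 1 in the deposited table only (VhaM8.9, now ATP6AP2).

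S2 is an established line of embryonic origin with features of plasmatocytes, the macrophage-like blood cells of the fly, and exosomes are small vesicles released from endosomal compartments. The study compared 4 libraries of exosomal mRNA with 4 libraries of total cellular mRNA, numbered 1 to 4 in both groups, with no treatment or genetic change named for either group. The design text speaks of 4 experiments without saying that each had its own culture or that a number marks an experiment. The p-values therefore measure the spread among these libraries only, and this spread may be technical. The RNA was bulk RNA, so fewer vesicles with a transcript and fewer copies per vesicle cannot be told apart.

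The vacuolar ATPase is a rotary pump that uses ATP to move protons into endosomes, lysosomes, secretory vesicles and, in some epithelia, out of the cell. Its cytosolic V1 sector binds and splits ATP, and its membrane-embedded V0 sector carries the protons. Flies have several genes for many of the subunits, of which usually 1 is expressed in most tissues while others are known mainly from particular tissues, such as the testis or neurons. The pump acidifies the same endosomal compartments in which exosomes form. Of the 34 genes, 13 encode V1 subunits, 18 V0 subunits and 3 accessory proteins.

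Values are FPKM (fragments per kilobase of transcript and per 1000000 fragments), so levels may be compared between genes of a library. The summed FPKM of a library ran from 91304 (exosome replicate 3) to 1140885 (cell replicate 2), a 12.5-fold range, so levels are also given in ppm, the FPKM of a gene per 1000000 of the summed FPKM of its library, or as a percentage of the summed FPKM of all Vha genes. Depth was judged from single-transcript genes of 1000 to 2000 bases, of which the lowest 5% of the values above 0 lay under 6.04 FPKM in exosome replicate 2 and under 0.0503 to 0.460 FPKM in the other 7 libraries. Exosome replicate 2 was thus the shallowest library, in which low genes appear either at 0 or at several FPKM. Exosome replicate 1 stood apart in another way: of 1578 genes whose median over the other libraries was at least 10 FPKM, 644 (40.8%) had a value of 0. The same share was 22.7% in exosome replicate 2 and at most 3.76% in the other 6 libraries. A value of 0 in this library may therefore be a failed estimate. Cell replicate 1 differed in blood-cell markers. Of the 8 plasmatocyte markers, the clotting protein gene Hml had 81.8 FPKM there and at most 1.04 in the other cell libraries, while He had 0.196 there and 3.84 to 49.3 in the others. All 8 markers had a value above 0 in all 4 cell libraries, and their summed level was 15.4 to 286 FPKM in cells and 18.1 to 45.1 FPKM in exosomes.

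S2 cells listed mRNA for every subunit of the pump. All 16 genes of the widely expressed set had a value above 0 in all 4 cell libraries, and 15 of them passed the filter of an FPKM above 1 in at least 4 of the 8 libraries. With Vha100-1 and VhaM9.7-c, 17 of the 34 genes passed. At the other end, 8 genes were listed at 0 in all 8 libraries. They were Vha14-2, Vha16-2, Vha16-3, Vha16-4, Vha100-3, VhaM9.7-a, VhaM9.7-d and VhaAC45RP. Of the 15 paralogs classed as restricted, 14 never exceeded 2.69 FPKM in any library, and Vha100-1 was the exception.

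**Figure D1:**
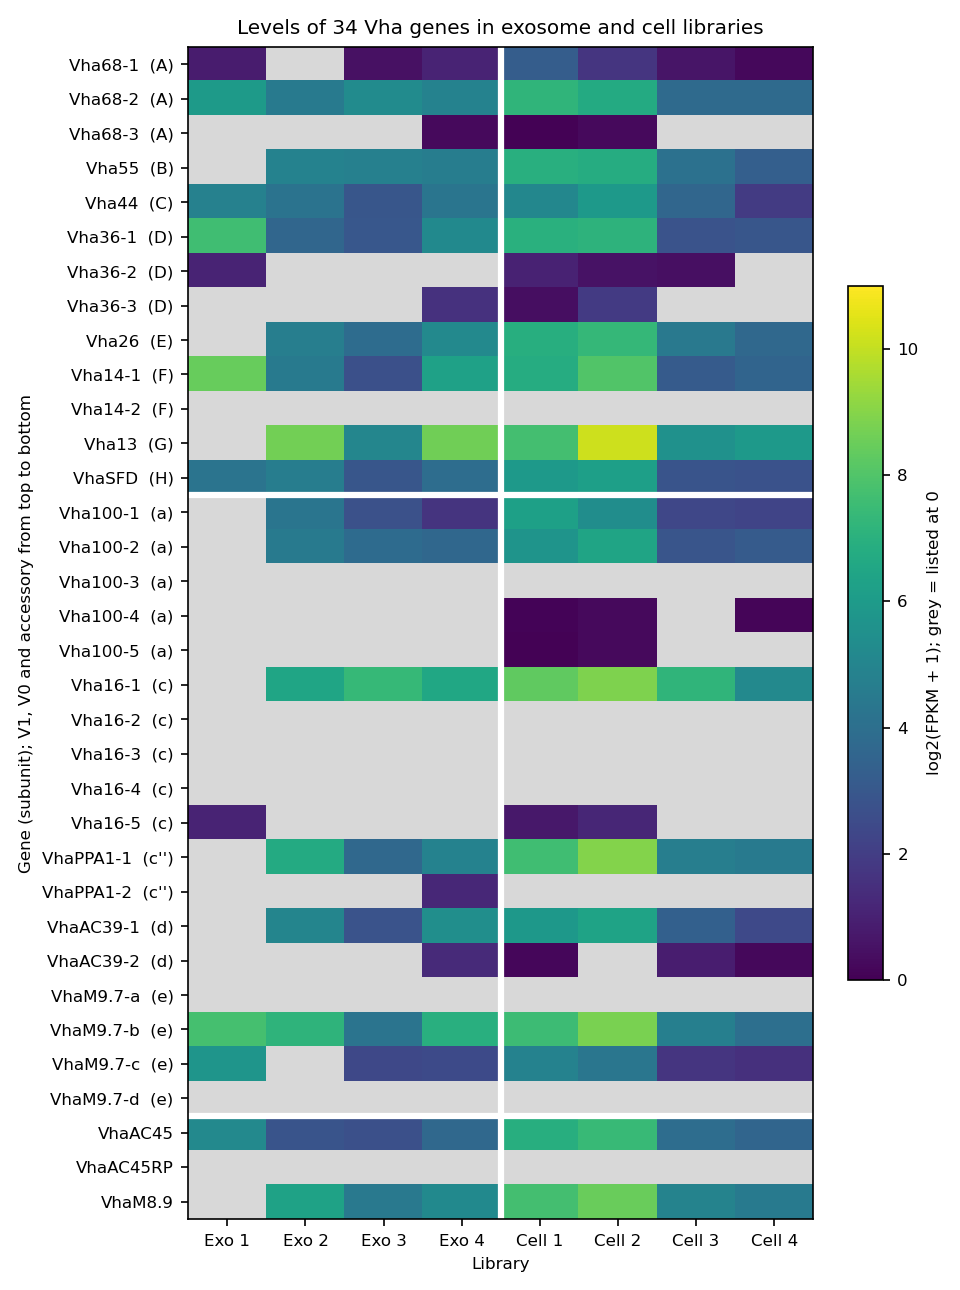
The colour gives log2(FPKM + 1) of each of the 34 Vha genes (rows, with the subunit letter in parentheses) in the 4 exosome and 4 cell libraries (columns), and grey marks a value of 0. In most families 1 row is coloured in nearly all libraries and its paralogs are dark or grey, and the first column has grey cells in 8 of the 16 widely expressed genes.

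Among V1 genes, the catalytic core came from Vha68-2 and Vha55. Vha68-2 encodes subunit A, which holds the sites of ATP hydrolysis, and had 144, 106, 12.8 and 12.9 FPKM in cell replicates 1 to 4 and 63.3, 22.3, 39.0 and 28.0 FPKM in exosome replicates 1 to 4. The lowest exosome value lay above 2 of the cell values, so the groups overlapped. Vha55, the only gene for subunit B, the other subunit of the ATP-binding ring, had 123, 109.9, 16.3 and 9.03 FPKM in cells and 0, 28.4, 27.0 and 24.0 in exosomes. Its 3 exosome values above 0 lay within the range of the cells.

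The other A paralogs were minor. Vha68-1 had 8.59, 2.26, 0.532 and 0.196 FPKM in cells and 0.765, 0, 0.418 and 1.17 in exosomes, although it is counted here among the widely expressed genes, and Vha68-3 did not exceed 0.223 FPKM. Vha68-2 held 94.3% to 98.5% of the summed FPKM of the A genes in cells and 95.3% to 100% in exosomes. Vha68-2 and Vha68-3 are direct neighbours among the protein-coding genes of Release 6, and 1 such gene lies between Vha68-1 and Vha68-3. Reads could have been shared where the sequences of these related genes are alike, which gene order does not show. Their sequences were not compared, so the low values of Vha68-1 and Vha68-3 are uncertain.

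The stalk subunits also came from 1 gene each. Vha36-1 encodes subunit D, the shaft of the central rotor, and had 125, 139, 6.02 and 6.78 FPKM in cells and 197, 11.4, 6.92 and 36.2 in exosomes. Its share of the D family was at least 94.0% in cells and 94.8% in exosomes, with Vha36-2 and Vha36-3 at no more than 2.69 FPKM. Vha14-1 encodes subunit F, which sits on the same shaft, and had 112, 257, 7.93 and 10.8 FPKM in cells and 346, 22.4, 5.48 and 78.7 in exosomes, while Vha14-2 was listed at 0 throughout. For both genes exosome replicate 1 was the highest of the exosome libraries and the groups overlapped.

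Vha13 was the most abundant V1 gene in all 4 cell libraries and in exosome replicates 2 and 4. It encodes subunit G of the peripheral stalks, which hold the ATPase ring still against the rotor. Its level was 206, 1153, 46.4 and 59.7 FPKM in cells and 0, 401, 32.1 and 395 in exosomes, which made it the 412th, 127th, 265th and 130th most abundant gene of the cell libraries and the 114th, 227th and 128th of exosome replicates 2 to 4. In exosome replicate 3 it was second among V1 genes to Vha68-2. Vha26, for subunit E, the partner of G in the stalks, had 117, 161, 20.7 and 12.1 FPKM in cells and 0, 24.9, 14.0 and 34.9 in exosomes.

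The V1 subunits C and H, which take part in regulating the pump's assembly and activity, had lower levels. Vha44, for subunit C, had 33.3, 60.8, 11.3 and 2.75 FPKM in cells and 27.8, 17.5, 6.76 and 18.5 in exosomes. VhaSFD, for subunit H, had 59.8, 73.3, 6.16 and 5.83 in cells and 17.8, 24.4, 6.76 and 14.2 in exosomes. Both genes were listed above 0 in all 8 libraries, and in ppm the values of both groups overlapped.

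Among V0 genes, those of the proteolipid ring had the highest mean shares in cells. Vha16-1 encodes the c subunit, of which several copies form the rotating ring that carries protons, and had 321, 467, 147 and 35.4 FPKM in cells and 0, 87.9, 164 and 92.4 in exosomes. It was the 107th most abundant gene of cell replicate 3 and the 68th of exosome replicate 3. Of its 4 paralogs only Vha16-5 was listed at all, at no more than 1.30 FPKM. VhaPPA1-1, for the related c double-prime subunit of the ring, had 197, 489, 24.8 and 21.4 FPKM in cells and 0, 103, 12.2 and 28.2 in exosomes. Its paralog VhaPPA1-2, separated from it by 1 protein-coding gene, was listed only in exosome replicate 4, at 1.34 FPKM.

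Subunits around the ring had lower mean shares in cells, but VhaM9.7-b lay above VhaPPA1-1 in every exosome library. VhaAC39-1 encodes subunit d, which joins the ring to the central shaft, and had 57.6, 82.2, 9.25 and 4.40 FPKM in cells and 0, 31.2, 6.06 and 41.9 in exosomes. Its paralog VhaAC39-2 reached at most 1.47 FPKM. Subunit e, a small membrane protein, was listed from VhaM9.7-b at 187, 439, 25.9 and 14.97 FPKM in cells and 213, 142, 17.9 and 124 in exosomes. VhaM9.7-b thus had a high value in exosome replicate 1, in which Vha16-1 and VhaPPA1-1 were at 0. A second e gene, VhaM9.7-c, was listed in 7 of the 8 libraries, at 28.2, 19.2, 2.24 and 1.90 FPKM in cells and 52.7, 0, 4.22 and 4.56 in exosomes, and VhaM9.7-b held 86.9% to 95.8% of the family in cells.

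Subunit a was the family whose leading paralog held the smallest share in cells. It forms the channels by which protons reach and leave the ring, and its isoforms direct the pump to different membranes. Vha100-2, widely expressed, had 50.7, 84.7, 6.47 and 8.06 FPKM in cells and 0, 21.4, 13.4 and 11.7 in exosomes. Vha100-1, known for its role in synaptic vesicles of neurons, had 75.2, 41.5, 4.02 and 3.78 FPKM in cells and 0, 18.5, 5.67 and 2.14 in exosomes. Vha100-2 therefore held 40.3%, 66.9%, 61.7% and 67.3% of the family in cell replicates 1 to 4 and 53.7%, 70.2% and 84.5% in exosome replicates 2 to 4. Vha100-1 was the higher of the pair in cell replicate 1 and the lower in the other 6 libraries with values. Vha100-3 was at 0 and Vha100-4 and Vha100-5 did not exceed 0.214 FPKM. Vha100-2 and Vha100-4 are direct neighbours.

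Of the tissues in which restricted paralogs are known, testis markers were near 0, whereas neuron markers reached up to 3.72 FPKM. Of 6 testis markers, 5 were at 0 in all 8 libraries and betaTub85D had 0.0716 FPKM in cell replicate 1. The 4 neuron markers elav, nSyb, brp and Syt1 together had 0.457 to 6.52 FPKM in cells and 0.426 to 3.09 in exosomes, where nSyb and Syt1 were at 0 in all 4 libraries. Cell replicate 1, in which Vha100-1 was highest, also had the highest elav (2.79 FPKM) and brp (3.72 FPKM) of the 8 libraries. nSyb and Syt1 went the other way, at 0 and 0.0120 FPKM there beside 0.350 and 0.665 in cell replicate 2. These values are not scaled to the unequal library totals, and a link to the level of Vha100-1 was not tested.

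The transcripts to which Vha100-1 was assigned differed between the groups. In cells the value came from CG1709-RC in all 4 libraries, at 2.60 to 20.4 FPKM, and from CG1709-RB in 3, with 2 more transcripts in replicate 1. In exosomes each library with a value listed a single transcript and each a different one. These were CG1709-RH in replicate 2 (18.5 FPKM), CG1709-RA in replicate 3 (5.67) and CG1709-RE in replicate 4 (2.14), none of which had a value in any cell library. Transcripts of Vha16-1 also varied between libraries. CG3161-RA was listed in all 4 cell libraries, at 20.02 to 295 FPKM, and in exosome replicates 3 and 4, whereas exosome replicate 2 listed only CG3161-RD. The transcripts of a gene share most of their sequence, so their separate values are uncertain, and at low depth few fragments decide which of them is listed. The sums per gene are used below.

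The order of levels within the pump was taken from shares within each library. As a share of the summed Vha FPKM, Vha16-1 held 19.5% ± 12.2 (SD, n = 4) and Vha13 18.3% ± 8.94 (SD, n = 4) in cells. Neither was the higher of the pair in more than 2 of 4 libraries. VhaPPA1-1 followed with 8.94% ± 2.16 (SD, n = 4), VhaM8.9 with 8.71% ± 0.989 (SD, n = 4) and VhaM9.7-b with 7.94% ± 1.96 (SD, n = 4), and the ranges of these 3 genes overlapped. The lowest share of VhaM9.7-b (6.14%) lay above the highest share of Vha26 (5.39%), the sixth gene, but not above that of Vha68-2, the next after it, which reached 6.63% in cell replicate 1. The 5 leading genes were thus not set apart from the rest. From Vha26 down to VhaM9.7-c, which had 0.775% ± 0.372 (SD, n = 4), the ranges of all neighbours in the order overlapped. By the mean over exosome replicates 2 to 4 the 5 leading genes were the same, with Vha13 at 8.26% to 40.0% and Vha16-1 at 8.44% to 42.3%. Of the single libraries, replicate 2 had these 5 in the lead, whereas Vha68-2 (10.04%) and Vha55 (6.95%) were among the first 5 in replicate 3, and Vha14-1 (7.96%) and VhaAC39-1 (4.24%) in replicate 4. Across the 16 widely expressed genes, which share library and depth and are not independent replicates, Spearman correlations of FPKM ranged from 0.797 to 0.915 for pairs of cell libraries. Pairs of 1 cell library and 1 of exosome replicates 2 to 4 gave 0.494 to 0.788, with a median of 0.710. Pairs among exosome replicates 2 to 4 gave 0.465 to 0.753, with a median of 0.609. These exosome libraries were thus no more alike among themselves than with the cell libraries. All 7 pairs with exosome replicate 1 gave values below 0, from -0.430 to -0.00314.

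**Figure D2:**
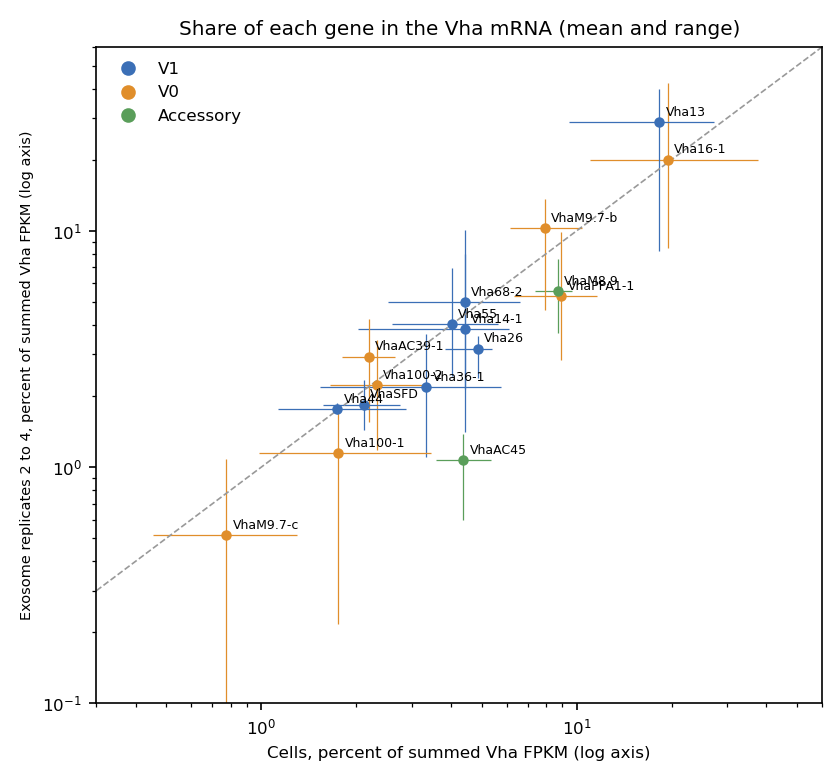
Each point is 1 of the 17 Vha genes with the highest share in cells, placed by its mean percentage of the summed Vha FPKM in the 4 cell libraries (horizontal log axis) and in exosome replicates 2 to 4 (vertical log axis), with lines for the range over libraries and a dashed line of equality. The lower end of the VhaM9.7-c line is 0 and is cut at the axis. VhaAC45 lies farthest below the line, at 4.38% in cells and 1.07% in exosomes.

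Exosome replicate 1 listed 8 of the 16 widely expressed genes and left 8 at 0. Those with a value were Vha14-1, Vha36-1, Vha44, Vha68-1, Vha68-2, VhaSFD, VhaM9.7-b and VhaAC45. Those at 0 were Vha13, Vha26, Vha55, Vha16-1, VhaPPA1-1, VhaAC39-1, Vha100-2 and VhaM8.9. Of the 15 Vha genes with a median of at least 10 FPKM in the other 7 libraries, 8 (53.3%) were at 0 in this library, beside 40.8% of all genes of that abundance. No Vha gene of that abundance was at 0 in any other library. The longest annotated transcripts spanned 703 to 3044 bases in the genes at 0 and 659 to 3875 bases in those with a value, and 4 genes of each kind had a single transcript.

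The share of the pump as a whole overlapped between the sources. Vha genes held 0.298%, 0.370%, 0.382% and 0.220% of the summed FPKM in cell replicates 1 to 4 and 0.112%, 0.314%, 0.426% and 0.233% in exosome replicates 1 to 4. Exosome replicates 2 and 4 lay within the range of the cells, replicate 3 above it and replicate 1 below it. The means were 0.318% ± 0.0747 (SD, n = 4) in cells and 0.271% ± 0.132 (SD, n = 4) in exosomes, a difference smaller than the spread between libraries. Without exosome replicate 1 the difference, exosome minus cell, was 0.0065 percentage points in place of -0.046.

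V1 and V0 genes shared the summed level about equally in cells. V1 genes held 50.3%, 56.0%, 36.8% and 57.1% of the FPKM of both sectors in cell replicates 1 to 4, a mean of 50.04% ± 9.33 (SD, n = 4). In exosomes they held 71.0%, 57.8%, 38.2% and 67.3%, a mean of 58.6% ± 14.7 (SD, n = 4). The ranges overlapped and the difference of 8.53 percentage points was smaller than the spread between exosome libraries. Leaving out exosome replicate 1, 3 or 4 made it 4.40, 15.3 or 5.62 points, and leaving out cell replicate 3 made it 4.11. Both libraries numbered 3 were low, and in both Vha16-1 had its highest share of the Vha level, 37.5% in cells and 42.3% in exosomes. With the c subunit genes left out, the V1 share was 61.0%, 64.1%, 63.6% and 68.6% in cells and 71.1%, 63.6%, 69.9% and 74.7% in exosomes. Restricted paralogs held 3.56%, 1.10%, 1.34% and 1.67% of the Vha level in cells and 0.237%, 1.77%, 1.46% and 0.724% in exosomes. The difference of -0.87 percentage points between the means was -0.32 without cell replicate 1. Without Vha100-1 the other restricted genes held at most 0.315% in cells and 0.507% in exosomes.

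**Figure D3:**
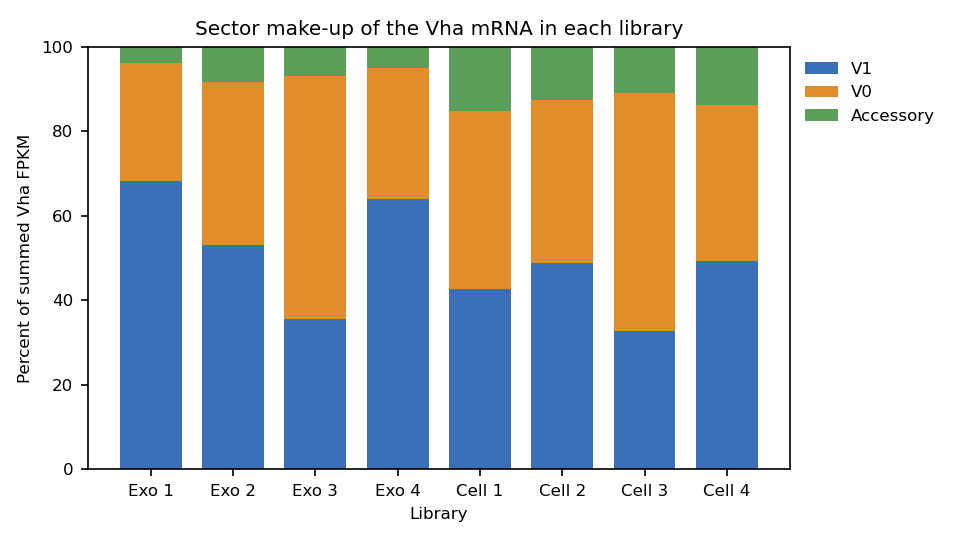
Stacked bars give the percentage of the summed Vha FPKM that V1, V0 and accessory genes held in each of the 8 libraries. The accessory part is 10.99% to 15.1% in the cell libraries and 3.70% to 8.20% in the exosome libraries, and V1 is smallest in both libraries numbered 3.

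Accessory proteins were the part of the pump whose share was smaller in every exosome library than in every cell library. VhaAC45 encodes the fly homologue of ATP6AP1 and VhaM8.9 that of ATP6AP2, membrane proteins that associate with V0 and take part in its assembly. Together they held 15.1%, 12.6%, 10.99% and 13.7% of the Vha level in cell replicates 1 to 4 and 3.70%, 8.20%, 6.77% and 4.90% in exosome replicates 1 to 4. Neither gene was set apart by its own share. VhaAC45 held 3.70% in exosome replicate 1 and 3.59% in cell replicate 3. VhaM8.9 held 7.60% in exosome replicate 2 and 7.40% in cell replicate 3, and was at 0 in exosome replicate 1. The pattern in the sum was noticed after the values were seen, and no test was made on the sum. Since the groups did not overlap in this sum, leaving libraries out could not make them overlap. The differences were -7.96 to -6.46 percentage points with any 1 library left out and -5.80 with both replicates numbered 1 left out.

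VhaAC45 had 117, 171, 14.1 and 10.98 FPKM in cells and 35.4, 6.21, 5.39 and 12.1 in exosomes, so on this scale the groups overlapped. In ppm it had 160.0, 149.6, 137 and 99.3 in cells and 41.6, 18.7, 59.0 and 28.5 in exosomes, and all exosome values lay below all cell values. The means were 137 ± 26.5 (SD, n = 4) in cells and 37.0 ± 17.4 (SD, n = 4) in exosomes, a 3.69-fold ratio (two-sided exact permutation p = 0.0286, the smallest that 4 against 4 allows). Adjusted over the 5868 genes tested, the exact permutation p was 0.872. The 16 widely expressed genes were compared in this way, and the other 15 had an exact permutation p of 0.0857 to 1. With any 1 library left out the ratio ran from 3.17 to 4.61 and the exact permutation p was 0.0571. With both replicates numbered 1 left out these were 3.64 and 0.1. VhaAC45 was picked out after its values were seen. Its groups did not overlap, so each of these p had to be the smallest possible and adds no support. In exosome replicate 2 its 6.21 FPKM was close to the lowest values that this shallow library holds. By rank VhaAC45 was 732nd, 557th, 903rd and 472nd in cells and 869th, 2379th, 1660th and 1790th in exosomes, and exosome replicate 1 lay within the range of the cells.

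In ppm, VhaAC45 was the 1 gene whose groups did not overlap among the 17 Vha genes that passed the filter. Over all tested genes, 2.83% lay lower in every exosome library than in every cell library and 0.17% lay higher. Among replicates 2 to 4 alone, 4.21% of genes lay lower and 2.15% higher in all exosome libraries. VhaAC45, already apart with all libraries, had to remain, and no other Vha gene was in either set. With 17 genes, 1 is the smallest count above 0, so it is not read against these shares as a result about the pump. VhaM8.9 had 211, 362, 29.0 and 22.4 FPKM in cells and 0, 79.2, 20.9 and 36.4 in exosomes. In ppm it had 289, 317, 283 and 202 in cells and 0, 238, 229 and 85.9 in exosomes, and the highest exosome values lay within the range of the cells.

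**Figure D4:**
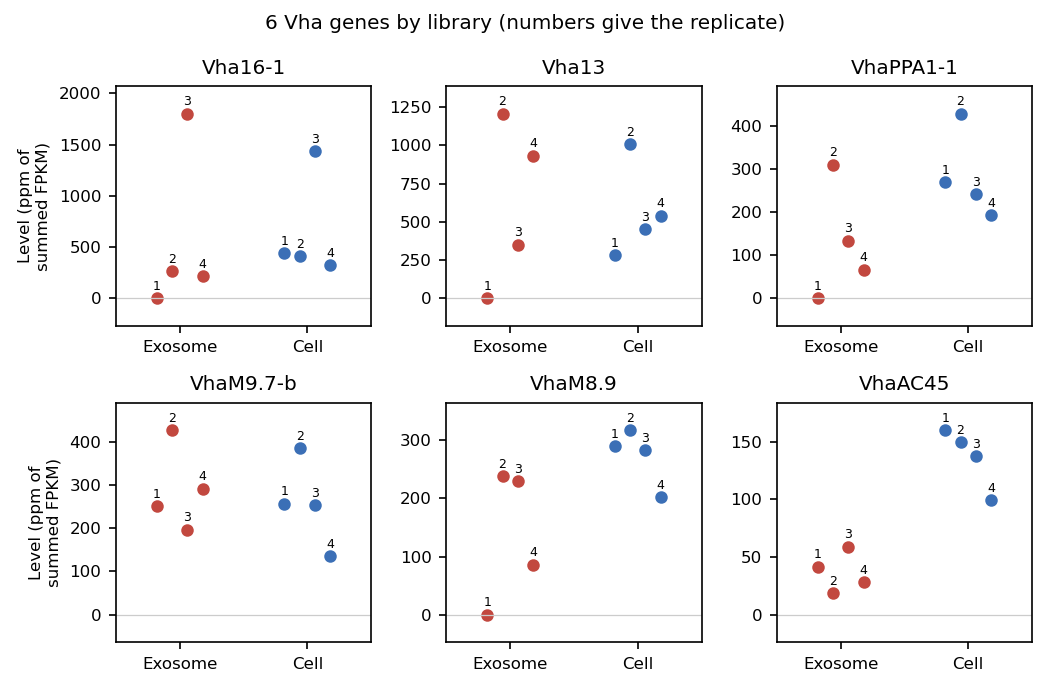
Points give the level in ppm of the summed FPKM of the library for 6 Vha genes in the 4 exosome (red) and 4 cell (blue) libraries, with the replicate number above each point. VhaAC45 is the gene whose exosome points (18.7 to 59.0) all lie below its cell points (99.3 to 160.0). Exosome replicate 1 is at 0 in Vha16-1, Vha13, VhaPPA1-1 and VhaM8.9, and both libraries numbered 3 are highest for Vha16-1.

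In the fit across all 5868 genes that passed the filter, limma's moderated test on log2(FPKM + 1) called 0 genes higher and 0 lower in exosomes after adjustment, 0% in each direction. None of the 17 Vha genes tested was called, with adjusted p from 0.708 to 0.987. At an unadjusted p under 0.05 limma gave 0 Vha genes in either direction, beside 0.0852% of all genes higher and 4.62% lower. The latter share stands for 271 genes. Leaving out cell replicate 4 made it 1213, and leaving out cell replicate 1, cell replicate 2, exosome replicate 1 or exosome replicate 2 made it 88, 58, 95 or 115. A gene could pass the filter on the cell libraries alone or on the exosome libraries alone. In exosome replicates 1 to 4, 3518, 3137, 5137 and 5737 genes exceeded an FPKM of 1. In cell replicates 1 to 4 these were 7044, 7077, 5459 and 3737. Entry may thus favour genes high in cells, and with them the share lower in exosomes, here and in ppm, which was not tested. The median log2 difference is therefore a description only. It was -1.55 for the 17 Vha genes and -1.01 for all genes tested. It moved to -0.60 without exosome replicate 1, where that of all genes was -0.95, and to -0.81 without cell replicate 2.

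A value of 0 in exosome replicate 1 enters the exosome mean, so genes at 0 there have lower log2 differences by construction. The 9 tested genes at 0 there had differences from -2.61 (VhaPPA1-1, SE 1.62) to -1.20 (VhaAC39-1, SE 1.48), and all 9 lay below the median of all genes. The 8 with a value there had differences from -1.85 (VhaAC45, SE 1.55) to 0.25 (VhaM9.7-b, SE 1.75), and 1 of them lay below that median. By sector the median difference was -0.34 over 8 V1 genes, -1.55 over 7 V0 genes and -2.13 over the 2 accessory genes. Without exosome replicate 1 these medians were -0.55, -0.60 and -1.73, and those of V1 and V0 were then nearly equal.

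Among other genes of the pathway, too, the test called none. Of 15 genes that assemble, regulate or work beside the pump, 14 passed the filter, and limma called 0 in either direction, with 0 at an unadjusted p under 0.05 and adjusted p from 0.708 to 0.982. Their median log2 difference was -1.01, with 7 of 14 below the median of all genes. Rbcn-3A and Rbcn-3B, homologues of the complex that helps V1 join V0, had 1.73 to 25.8 and 1.12 to 12.2 FPKM in cells and 0 to 2.95 and 0 to 8.72 in exosomes. Mitf, a transcription factor known to drive pump genes in flies, had 6.81, 4.28, 1.28 and 0.295 FPKM in cells and 0, 0, 1.14 and 6.34 in exosomes. The Ragulator, a lysosomal scaffold for growth signalling that binds the pump, was led by Lamtor3 at 83.6, 188, 9.72 and 5.63 FPKM in cells and 193, 31.3, 7.49 and 69.6 in exosomes. The Rag GTPase genes RagA-B and RagC-D reached 27.0 and 38.4 FPKM in cells and 9.48 and 30.8 in exosomes, and the vesicular chloride transporter genes ClC-b and ClC-c reached 36.7 and 55.8 in cells and 5.76 and 25.0 in exosomes. Lamtor1, Lamtor2, Lamtor4, Lamtor5, mtd and CG5969 also passed the filter, with values from 0 to 103 FPKM, and CG7071 did not pass. In FPKM the ranges of both groups overlapped in each of the 14. In ppm they overlapped in 12, and ClC-b and CG5969, picked out after their values were seen, lay lower in every exosome library than in every cell library, beside 2.83% of all tested genes. ClC-b had 50.3, 26.9, 22.8 and 24.2 ppm in cells and 6.77, 0, 20.9 and 8.87 in exosomes. CG5969 had 37.5, 24.1, 41.3 and 24.6 ppm in cells and 16.0, 0, 22.7 and 15.3 in exosomes. Both were at 0 in exosome replicate 2, the shallowest library, and in both the highest exosome value was close to the lowest cell value.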

How the data were processed

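Polyadenylated RNA of 4 exosome and 4 cell libraries was measured, made with a directional kit per the labels' protocols. The deposited gene table holds values per transcript, taken as FPKM made by the authors because they are not whole, their totals differ between libraries and Cufflinks writes this unit. TopHat2, Cufflinks, DESeq2 and the build dm3 are named, per the submitters' processing notes, with no versions or roles. Fragment counts are not given, so intervals from depth cannot be had. The table of transposable elements was not used here. Transcripts were summed by their CG identifier. Names and neighbours came from Release 6 and transcript lengths from Ensembl, with no coordinates because the builds differ.

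The genes tested exceeded an FPKM of 1 in 4 or more libraries. Their log2(FPKM + 1) values, with a pseudocount of 1 that understates the change of low genes, were compared by limma 3.58.1 in R 4.3.3 with a trend, without a block, with Benjamini-Hochberg adjustment at 0.05. The fit was tested on simulated data, in which it called few of the changes put in at the spread of these libraries and nearly all at a smaller spread. Single values in ppm were compared by two-sided exact permutation tests over the 70 splits of 8 libraries. Every member is named, with values per library for those with a mean of at least 10 FPKM in either group and the leading paralog of each family. VhaAC45 in ppm and the accessory share were added after the values were seen. Alternatives were quantile normalization, rescaling to ppm, a pseudocount of 0.1, no filter, a filter at FPKM 10, each library left out, both replicates numbered 1 left out and the replicate number as a block. The members, lists and tests were chosen with earlier results of these data known. The class of each paralog and its sector are from general knowledge.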

Additional observations from a re-analysis of the deposited data

Results flagged for a closer look

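In 4 of the 42 groups of 4 libraries examined, 1 library stood far from the other 3, where chance gives about 1 in 20. Vha16-1, the c subunit gene, had 1801 ppm in exosome replicate 3 beside 0 to 265 in the other exosome libraries, and 1435 in cell replicate 3 beside 320 to 440.4 in the other cell libraries. Vha68-2, the A subunit gene, had 427 ppm in exosome replicate 3 beside 66.1 to 74.5 in the others. Vha100-1, the a subunit gene of neurons, had 103 ppm in cell replicate 1 beside 34.2 to 39.2 in the others.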

How the results depend on the processing

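In each of the 15 alternatives limma called 0 genes over the table and 0 Vha genes, and the adjusted p of Vha genes ran from 0.230 to 0.9999. At an unadjusted p under 0.05 the genes lower in exosomes numbered 271 as reported, 28 with both replicates numbered 1 left out, 29 with the filter at FPKM 10, 429 with a pseudocount of 0.1, and 58 to 1213 with 1 library left out. Those higher numbered 5 as reported and 206 after quantile normalization, which moved the median of all genes from -1.01 to 0.11 on the log2 scale. Rescaling moved it to -1.19. Exosome minus cell, the difference was 4.11 to 15.3 percentage points in the V1 share and -1.14 to -0.053 in the restricted share over their alternatives. In the Vha share of the library it was -0.098 to 0.0065, above 0 without exosome replicate 1 and, at 0.000053, with both replicates numbered 1 left out. The restricted share moved most with both replicates numbered 1 left out, from -0.87 to -0.053, which is more than the SD of the exosome libraries (0.697) and less than that of the cell libraries (1.12).

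Log2 differences of single Vha genes, none of them called, changed sign in 32 of 253 cases. After quantile normalization this gave 0.20 for Vha36-1, 0.46 for Vha44, 0.28 for Vha68-2, 0.57 for VhaM9.7-c and 0.012 for VhaSFD. With both replicates numbered 1 left out it gave 0.22 for Vha13, -0.39 for Vha14-1, 0.031 for Vha55, 0.13 for Vha68-2 and 0.36 for VhaAC39-1. With 1 library left out the ranges were -2.78 to 0.10 for Vha13, -0.87 to 1.05 for Vha14-1, -1.02 to 0.62 for Vha36-1, -0.81 to 0.53 for Vha44, -0.73 to 0.41 for Vha68-2, -0.50 to 1.09 for VhaM9.7-b, -1.49 to 0.43 for VhaM9.7-c and -1.05 to 0.099 for VhaSFD. The cause was not tested.

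With the replicate number as a block (replicate block), limma called 0 genes in either direction, 163 genes were lower and 5 higher at an unadjusted p under 0.05, and the median of the Vha genes stayed at -1.55. Deviations of same-numbered libraries correlated at 0.23, 0.19, 0.45 and -0.068. Exosome replicates 1, 2 and 3 each correlated best with the cell library of their number, whereas exosome replicate 4 correlated best with cell replicate 2 (0.41). The labels do not say that a number marks an experiment, so the numbers were not taken to pair the libraries. The permutation tests ignore any pairing, and a shared batch was not tested. Fragment counts are not given, so the depth behind a low value is unknown.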
